A study of Mus musculus with 2 samples.

Results

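Fibroblast growth factor (FGF) ligands and their receptors were measured in wounded mouse skin, as 7 ligand genes (Fgf1, Fgf2, Fgf5, Fgf7, Fgf10, Fgf18 and Fgf22) and 3 receptor genes (Fgfr1, Fgfr2 and Fgfr3). The genes were taken by their symbol in the deposited annotation, which gave 18 probes for 10 of the 17871 genes on the array. The skin came from C57BL6 mice aged 3 months on a low calcium diet, which was shared by both groups. Every mouse carried a floxed Vdr gene, which encodes the vitamin D receptor. The knockout mice (VDR fl/fl K14 driven Cre) also carried Cre recombinase under the keratin 14 promoter, which deletes Vdr in basal keratinocytes and their progeny, while dermal cells keep it. Their littermates without Cre (VDR fl/fl) were the controls. On the back of each mouse 2 wounds were made through the whole skin with a 6 mm punch, and after 3 days an 8 mm punch of wound and surrounding skin was taken. Each group had 1 Illumina bead array, hybridised with RNA that, by the design text of the series, came from 3 mice. That text also gives an n of 3 for each genotype, and taking each array as 1 pool of 3 mice is a reading of it. With a single array a group, none of the differences was tested or could be set against the spread between mice, and the number of arrays limits the precision.

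FGFs are secreted signals that bind receptor tyrosine kinases together with heparan sulphate, and the receptors act mainly through adaptors and the Ras-MAP kinase cascade. In mouse skin, mesenchymal Fgf7 and Fgf10 act on the epithelial splice form of Fgfr2 in keratinocytes, an axis known for roles in wound re-epithelialisation and hair growth. The hair cycle uses the family too: Fgf5 from the outer root sheath ends the growth phase (anagen), and mice without it have long angora hair, while Fgf18 is known as a signal of the resting follicle.

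Values are the authors' normalized intensities, in arbitrary units, and differences are log2 of knockout minus control. A probe was counted as detected where its signal lay above a floor of 172.2 in the control and 176.7 in the knockout. Each floor was set so that as many probes lay above it as had a detection p-value under 0.01. For scale, 1302 olfactory and vomeronasal receptor probes, genes silent in skin, had a median of 142.5 and 142.8. Intensities of different probes are not levels that can be compared with each other. Where a probe was detected on 1 array only, its fold is a bound against the other array's floor and is written as at least N-fold.

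As a check of the labels, Vdr itself was at 2596 in the control and 2076 in the knockout by its brightest probe. The other probes were at 1674 and 1430 and at 211.5 and 216.6. The position of these probes relative to the floxed exons was not used here, and dermal cells are not targeted, so that the label is checked only weakly. On the arrays as a whole, the central 95% of the 8934 genes detected on both lay between -0.58 and 0.65, with a median of 0.02, and 548 genes were detected in control skin alone and 271 in knockout skin alone.

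Many FGF probes were dim, and so were many others on the array. Of the 18 probes, 8 were above the floor on both arrays, 2 in control skin alone and 8 on neither. Of all 25697 probes, 49.0% were above the floor in the control and 47.4% in the knockout. By the brightest probe of each gene, 6 genes were detected on both arrays, Fgf5 and Fgf22 in control skin alone, and Fgf2 and Fgf18 on neither array. Of all 17871 genes, 9753 were detected on at least 1 array and 8934 on both. Of the 8 detected genes, 6 had a control signal under 344.4, which is 2 times the floor, as did 37.8% of all 9753 genes detected on at least 1 array. A signal at 2 times the control floor can show a loss of at most 1.95-fold before it meets the knockout floor, so the folds of these genes can be understated.

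By the brightest probe, Fgf22 and Fgf5, ligands known from hair follicle epithelium, were lower in knockout skin by at least 1.82-fold and 1.30-fold. The other Fgf22 probe was 1.35-fold lower. Of the mesenchymal ligands, Fgf7 was 1.06-fold higher and Fgf10 1.15-fold lower by the brightest probe, and of the receptors Fgfr2 was 1.32-fold lower. Among the 8 detected genes, 5 were lower and 3 higher in the knockout, where 46.2% of all detected genes were lower and 52.1% higher by any amount. In the raw signals, where the median of all detected genes was -0.16, all 8 were lower. The share of all detected genes lower in the raw signals is not given here. Counts in the raw signals, here and in the lists below, are to be read beside that median. In the authors' values Fgf22 was the 1 gene at least 1.5-fold lower by its brightest probe, beside 2.98% of all detected genes. None was at least 1.5-fold higher, beside 3.34%, and none passed 2-fold, beside 1.38% lower and 0.687% higher. The median difference of the 8 genes was -0.15, against 0.01 over all detected genes. With 8 genes these shares describe the set and do not set it apart from the array.

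**Figure D1:**
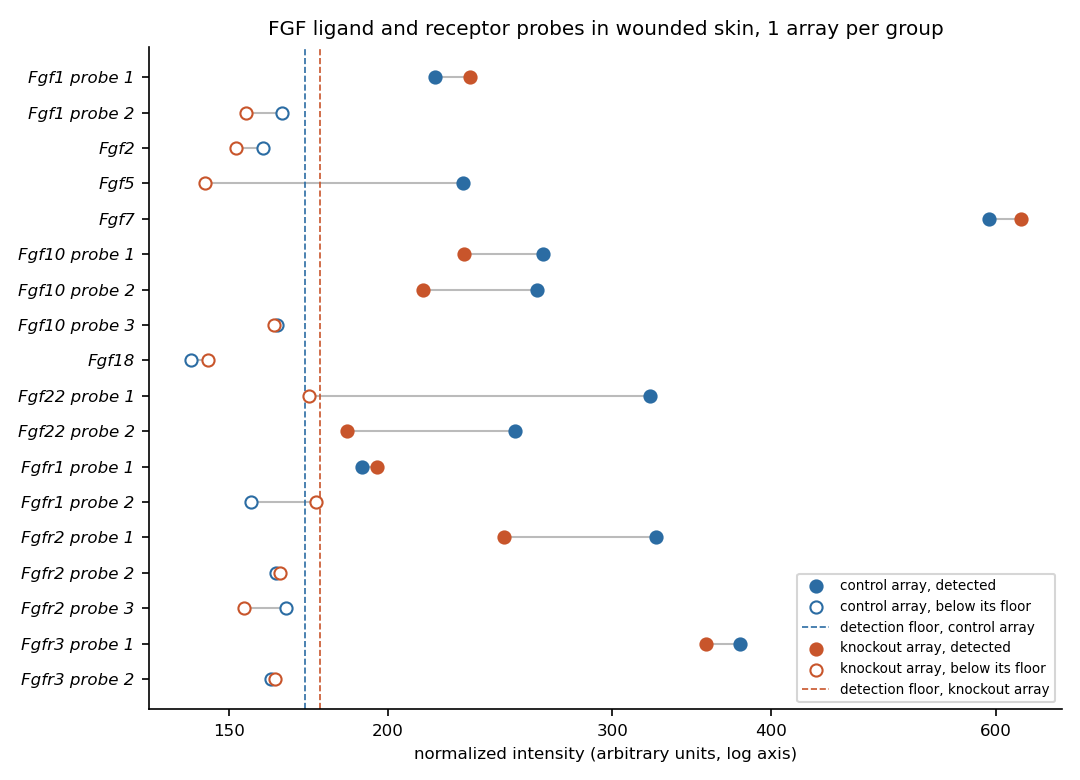
Normalized intensity (log axis) of the 18 FGF probes on the control array (blue) and the knockout array (orange), with lines joining the same probe and dashed lines at the detection floors of 172.2 and 176.7. Open points are below the floor; Fgf5 and both Fgf22 probes show wide gaps towards lower knockout signal, while Fgf7 and Fgfr3 lie close together.

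Fgf22 is a ligand known from the inner root sheath of the mouse hair follicle and acts on the epithelial form of Fgfr2. Its probe 1 (ILMN_1245714) was at 320.9 in the control and 173.4 in the knockout. The knockout signal lay below the floor, and 9 of 1302 receptor probes were brighter there, so the gene was at least 1.82-fold lower by this probe. Its probe 2 (ILMN_2604814) was at 251.5 and 185.7, detected on both arrays and 1.35-fold lower. Both probes thus had the lower signal in the knockout, and they differed in whether the knockout signal was detected. After background correction with neqc, the difference of probe 1 was -2.03 as a bound and -2.14 as measured, with the knockout signal below the floor, and that of probe 2 was -1.11.

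Fgf5, the ligand that ends anagen, had 1 probe (ILMN_2642743), at 229 in the control and 143.7 in the knockout. None of the 1302 receptor probes was brighter than it on the control array, and 589 were on the knockout array, where it lay amid the signals of silent genes. Against the floor this is at least 1.30-fold lower, a difference of -0.37 as a bound and -0.67 as measured. With neqc the difference was -1.09 as a bound and -2.21 as measured, with the knockout signal below the floor.

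Markers of the growing hair follicle are given beside Fgf5 and Fgf22, and their list was chosen with earlier results of these data known. All 15 detected markers of 17 on the array were lower in the knockout, 14 of them at least 2-fold (1.38% of all detected genes were), with a median of -5.15. The summed intensity of the 17 markers was 167896 in the control and 5374 in the knockout. The inner root sheath keratins Krt71 and Krt27, the brightest of them, were at 34898 and 618 and at 30589 and 686. The markers Krt25 and Foxn1 were below the floor on both arrays. The part of follicle content in the Fgf5 and Fgf22 values was not tested. In whole skin, fewer cells of a type and less RNA per cell cannot be told apart.

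The 250 bases before the transcription start of these genes are shown because the vitamin D receptor, which was deleted in keratinocytes, binds pairs of hexamers related to AGGTCA. Fgf7, whose signal was close between the arrays, is set beside Fgf5 and Fgf22. Sequences are from RefSeq (GRCm38.p6), and capitals mark matches on either strand to AGGTCA, to the variant GGGTCA or to the variant GGTTCA.
Fgf5, chr5:98253934-98254183, plus strand: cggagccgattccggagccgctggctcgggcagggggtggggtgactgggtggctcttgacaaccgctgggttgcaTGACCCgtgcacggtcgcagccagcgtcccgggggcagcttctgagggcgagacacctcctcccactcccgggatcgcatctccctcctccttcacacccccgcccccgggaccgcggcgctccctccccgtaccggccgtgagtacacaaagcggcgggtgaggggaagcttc
Fgf22, chr10:79754859-79755108, plus strand: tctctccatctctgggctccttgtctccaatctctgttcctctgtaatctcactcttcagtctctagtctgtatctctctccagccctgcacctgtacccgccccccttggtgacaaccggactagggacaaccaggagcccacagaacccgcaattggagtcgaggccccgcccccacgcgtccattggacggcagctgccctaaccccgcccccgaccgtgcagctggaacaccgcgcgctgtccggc
Fgf7, chr2:126034408-126034657, plus strand: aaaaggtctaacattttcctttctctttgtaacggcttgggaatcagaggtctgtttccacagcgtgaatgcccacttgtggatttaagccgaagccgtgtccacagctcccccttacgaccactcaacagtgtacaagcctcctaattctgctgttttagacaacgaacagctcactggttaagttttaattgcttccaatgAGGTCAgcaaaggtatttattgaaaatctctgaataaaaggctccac
The Fgf5 window held 1 match, TGACCC, which is GGGTCA on the other strand and begins 174 bases before the start. The Fgf22 window held none, and the Fgf7 window held AGGTCA, beginning 47 bases before the start. Of 32851 such windows in the table, 30.4% held at least 1 of these hexamers, with AGGTCA in 14.0%, GGGTCA in 11.6% and GGTTCA in 8.85%. A pair of them in the same direction, 3 bases apart, was in 10 windows (0.0304%), and in none of the 9 windows of the 8 FGF genes looked up there. A match is a description of these letters and says nothing of binding.

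Fgf10, a mesenchymal ligand of the dermis and dermal papilla, was lower by 2 of its 3 probes. Probe 1 (ILMN_2736497) was at 264.8 in the control and 229.4 in the knockout, 1.15-fold lower. Probe 2 (ILMN_2982771) was at 261.7 and 213.1, 1.23-fold lower, and probe 3 lay below the floor on both arrays, at 163.7 and 162.8. Both detected probes pointed the same way, by less than 1.5-fold. Across the array, 93.9% of the 8934 genes detected on both arrays were within 1.5-fold.

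Fgf7, keratinocyte growth factor, is made by dermal fibroblasts and dermal papilla cells and is known to be induced in mouse wounds. Its probe (ILMN_2833706) was at 592.3 in the control and 627.6 in the knockout, 1.06-fold higher. It was the ligand whose value depended least on background correction, with a difference of 0.08 in the authors' values and 0.10 with neqc. In the raw signals the sign turned to -0.12, where the median of all detected genes was -0.16.

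Fgf1, acidic FGF, which binds all FGF receptors, had probe 1 (ILMN_2701233) at 217.6 in the control and 232.1 in the knockout. This is 1.07-fold higher, and its difference of 0.09 turned to -0.06 in the raw signals. Probe 2 was below the floor on both arrays, at 165.0 and 154.6. Fgf1 therefore showed a small difference whose sign rests on the scaling.

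Fgf2 and Fgf18 were not detected on either array. Fgf2, basic FGF, a stimulus of fibroblasts and vessels, was at 159.4 in the control and 152.0 in the knockout. Of the 1302 receptor probes, 34 were brighter than it in the control and 203 in the knockout. Fgf18 was at 140.0 and 144.3, with 810 and 550 receptor probes brighter, so its probe read like those of silent genes. Neither gene has a fold, and the arrays put no number on a difference in either.

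Fgfr2, the receptor whose epithelial form binds Fgf7, Fgf10 and Fgf22, was lower in the knockout by the 1 of its 3 probes that was detected. Probe 1 (ILMN_2609887) was at 324.5 in the control and 246.5 in the knockout, 1.32-fold lower, a difference of -0.40. With neqc the difference was -0.75, past 1.5-fold. Probes 2 and 3 were below the floor on both arrays, at 163.4 and 164.4 and at 166.2 and 154.2. The position of the probes within the gene was not used here, so that epithelial and mesenchymal splice forms are not told apart.

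Fgfr3, a receptor of the epidermis, differed little. Its probe 1 (ILMN_1257208) was at 378 in the control and 355.3 in the knockout, 1.06-fold lower, and probe 2 was below the floor, at 161.8 and 163.0. Fgfr1, the main receptor of dermal fibroblasts, had probe 1 (ILMN_2727068) at 190.9 and 196.1, 1.03-fold higher, with a difference of 0.04 that turned to -0.09 in the raw signals. Its probe 2 was below the floor on both arrays, at 156.1 and 175.5. These receptor values lay within the spread of probes of the same gene, whose differences had an SD of 0.14 over 2131 genes with several detected probes. This SD measures probe noise, not the spread between mice.

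**Figure D2:**
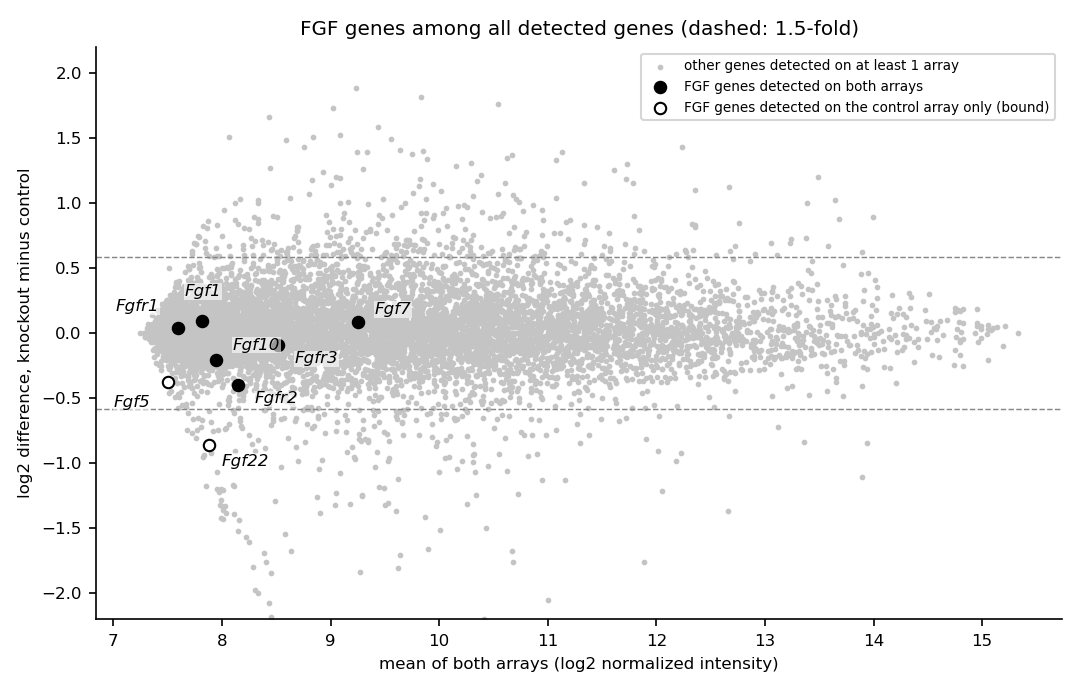
Log2 difference (knockout minus control) against the mean log2 normalized intensity of the 2 arrays for genes detected on at least 1 array, with the 8 detected FGF genes in black (open: bound) and dashed lines at 1.5-fold. The FGF genes other than Fgf7 sit at or near the dim end, and of the FGF genes Fgf22 alone lies beyond a dashed line. Outside the plotted range lie 62 other genes.

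The differences were also computed after background correction. With neqc, Fgf22, Fgf5 and Fgfr2 were at least 1.5-fold lower, 3 of the 8 genes, beside 5.64% of all detected genes. None was as much higher, beside 7.57%. The differences of Fgf10 by probes 1 and 2 were then -0.43 and -0.66, the latter past 1.5-fold. Of the 10 settings tried, neqc gave the lowest values for Fgf5, Fgf10, Fgf22 and Fgfr2.

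**Figure D3:**
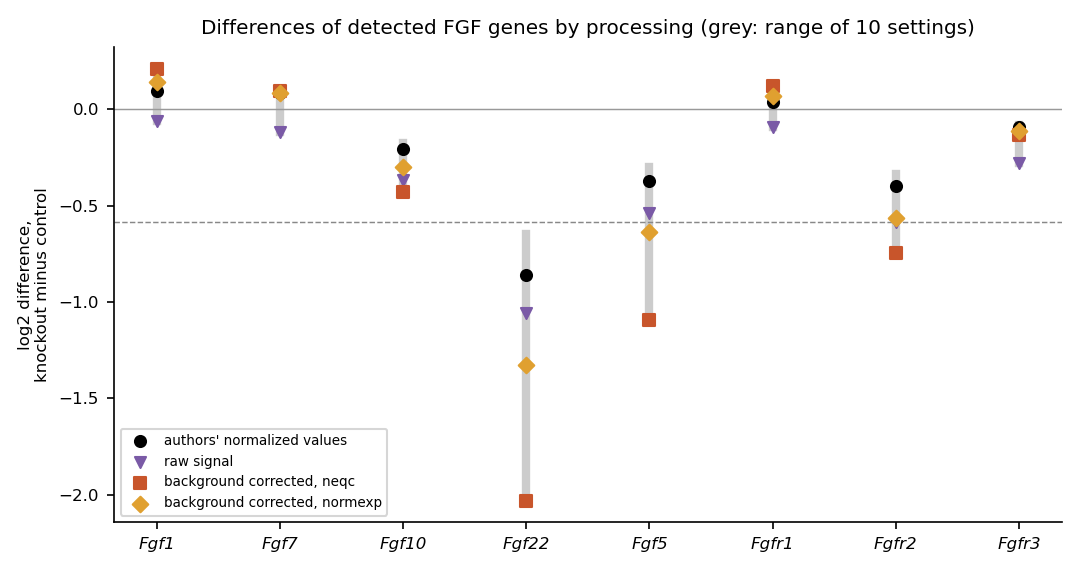
Log2 difference of the 8 detected FGF genes by processing, with markers for the main and other settings, a grey bar for the range over all 10 settings, a line at 0 and a dashed line at 1.5-fold lower. Fgf22 runs from -2.03 to -0.65 and Fgf5 from -1.09 to -0.30, while Fgf1, Fgf7 and Fgfr1 stay close to 0 on either side.

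Other FGF ligands added little. Of 15 further ligand genes on the array, 14 were below the floor on both arrays, beside 8118 of all 17871 genes. The exception was Fgf13, an intracellular FGF that does not act through the receptors, at 359 in the control and 416 in the knockout. Its other 2 probes were below the floor. Fgfr4, the remaining signalling receptor, and the klotho coreceptors Kl and Klb were not detected either.

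Among cell surface partners of the receptors, Gpc3 and Flrt3 were lower in the knockout and most others were close. Of 12 detected genes of 17, 6 were lower and 6 higher, where 46.2% of all detected genes were lower, with a median of -0.01. In the raw signals 10 were lower and 2 higher. In the authors' values 2 were at least 1.5-fold lower, beside 2.98% of all detected genes. Gpc3, a glypican that carries heparan sulphate chains, was at 2604 in the control and 1107 in the knockout, 2.35-fold lower, and its other probe was at 1773 and 710. Flrt3, a membrane protein that binds FGF receptors and promotes their signalling in Xenopus, was at 2245 and 1322, 1.70-fold lower. The other Flrt3 probes were at 2061 and 1081 and at 238.5 and 197.9, also lower in the knockout. The brightest of the remaining partners were closer: the glypican Gpc1 was at 7623 and 8614, and perlecan (Hspg2), a basement membrane proteoglycan, at 4152 and 4846.

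Etv4 and cyclin D1 were lower among the feedback and target genes of the pathway, and the other genes detected on both arrays were within 1.5-fold. Of 11 detected genes of 18 on the array, 9 were lower and 2 higher, with a median of -0.10, where 46.2% of all detected genes were lower. At least 1.5-fold lower were 2, beside 2.98% of all. Etv4, an ETS factor induced by FGF signalling, was at 592.5 in the control and 377.4 in the knockout, 1.57-fold lower. Cyclin D1 (Ccnd1), a cell cycle target of many mitogens, was at 5203 and 3347, and its 3 probes had differences between -0.70 and -0.54. Dusp6, a phosphatase that acts on the end of the MAP kinase cascade and a feedback gene of FGF signalling, was at 4798 and 3687, 1.30-fold lower. Its other probes disagreed, at 265.1 and 283.1 and at 182.7 and 167.7, the latter below the knockout floor. Egr1, an immediate early target, was at 6082 and 5509. The feedback inhibitors Spry1 and Spry2 were below the floor on both arrays, and Spry4 was at 187.6 and 174.6, below the knockout floor, with a fold that is a bound only. These genes answer to other growth factors too, and 7 of the 18 were not detected.

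Inside the cell, the adaptors and the MAP kinase cascade were close between the arrays. Of 19 genes on the array, the 12 detected on both arrays were within 1.5-fold, as were 93.9% of all such genes. Of these 12, 8 were lower and 4 higher, where 46.2% of all detected genes were lower. Frs3, at 173.8 and 151.8, was detected in the control alone, near the floor, and has no fold. With the difference of Frs3 set to 0, the median of the 13 was -0.02. In the raw signals 12 of the 13 were lower and 1 higher. Nras was at 7126 in the control and 5591 in the knockout, and Shp2 (Ptpn11), the phosphatase that relays the signal to Ras, at 6991 and 5710. The adaptor Shc1 was at 5847 and 6200. The adaptor Grb2 was below the floor on both arrays.

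Enzymes that build or trim heparan sulphate were higher in 7 of 9 detected genes of 11 on the array, with a median of 0.23, beside 52.1% of all detected genes. In the raw signals 5 of 9 were higher, with a median of 0.03. The 1 gene beyond 1.5-fold, which 3.34% of all genes passed upwards, was Sulf1, an extracellular sulphatase that removes sulphate groups from heparan sulphate and is known to dampen FGF2 signalling, at 413.9 in the control and 719.4 in the knockout, 1.74-fold higher. The chain-building enzymes Extl3, Ext1 and Ext2 were at 2869 and 3615, at 1969 and 2306 and at 1405 and 1511. The splicing factors that select receptor forms were close, with a median of -0.12 over 4 genes. Of these 4 genes 3 were lower, beside 46.2% of all detected genes, and 4 were lower in the raw signals. Esrp1 and Esrp2, which favour the epithelial forms, were at 1576 and 1345 and at 592 and 549. Ptbp1 was at 3814 and 3457 and Rbfox2 at 245.3 and 255.4.

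**Figure D4:**
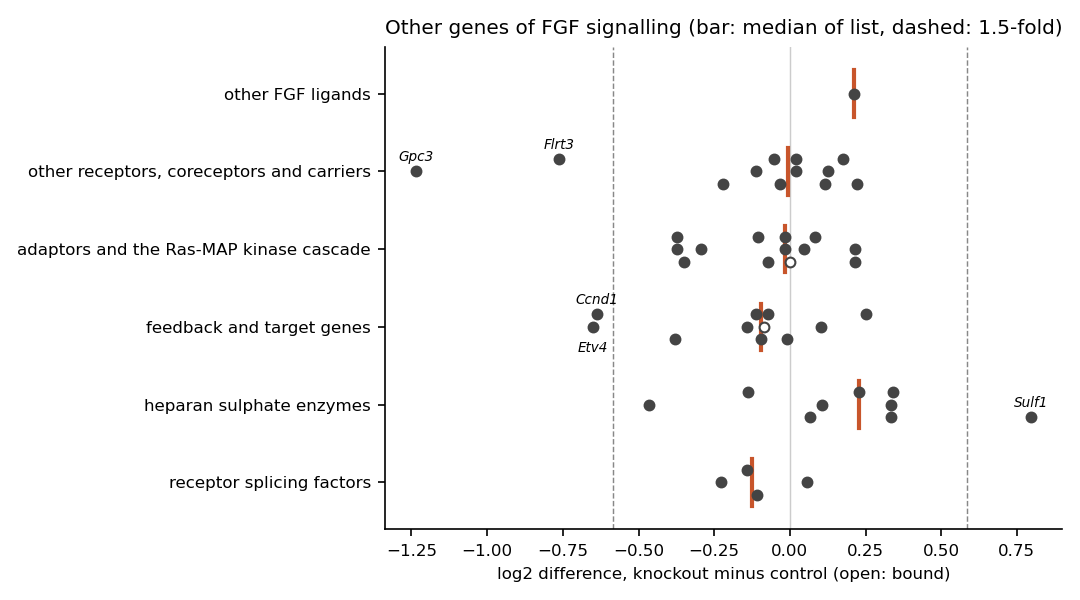
Log2 difference of detected genes in 6 lists of FGF signalling genes, 1 point a gene (open: bound), with orange bars at the list medians and dashed lines at 1.5-fold. Gpc3, Flrt3, Etv4, Ccnd1 and Sulf1, named in the plot, are the genes beyond 1.5-fold.

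Markers of the cells that make or receive FGFs are given beside these values, and their part in the results was not tested. Basal keratinocyte markers, of cells that carry Fgfr2 and Fgfr3, had a median of 0.10 over 9 detected of 9, or -0.04 in the raw signals, with summed intensities of 70746 and 74196. Krt14 was at 34643 in the control and 35507 in the knockout, and Krt5 at 10274 and 11002. Dermal fibroblast markers, of cells that make Fgf7 and Fgf10, were higher in 9 of 9, beside 52.1% of all detected genes. In the raw signals 5 of 9 were higher. The list had a median of 0.26 in the authors' values and sums of 43556 and 50139. Decorin (Dcn) was at 16383 and 17098 and the collagen Col1a1 at 9086 and 11691. All genes of both lists were within 1.5-fold, as were 93.9% of all genes detected on both arrays.

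Dermal papilla markers were mixed. Of 8 detected of 12, 6 were lower and 2 higher, where 46.2% of all detected genes were lower. The median of the 8 was -0.17. The sums over all 12 markers, undetected ones included, were 3416 and 2953. The brightest by the mean of both arrays, Sox18 and Crabp1, were higher in the knockout, at 474.8 and 572.4 and at 397.3 and 567.5. Corin and Wif1, named after their values were seen, were at 562.8 and 229.8 and at 413.2 and 183.6. They were the 2 genes past 2-fold, beside 1.38% of all detected genes at least 2-fold lower. Prom1, Vcan, Sox2 and Hhip were below the floor on both arrays.

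T cell markers were higher in the knockout in the authors' values. In mouse skin, epidermal gamma delta T cells are another source of Fgf7 and Fgf10 after wounding. The gamma delta marker of the list, Trdc, was not on the array, so that these cells are not told apart from other T cells. All 6 markers on the array were higher, or 5 of 6 in the raw and the median-scaled signals, and 5 of them passed 1.5-fold, beside 3.34% of all detected genes. Their median was 0.85, with sums of 7360 and 8908. Cd3g was at 346.8 in the control and 761.6 in the knockout, and Thy1, also made by fibroblasts, at 5987 and 6137.

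The remaining lists had medians of -0.27 for 5 detected adipocyte markers of 7, 0.28 for 6 endothelial markers of 7, 0.35 for 7 macrophage and monocyte markers of 7, 0.18 for 6 skeletal muscle markers of 6 and 0.88 for 7 sebaceous gland markers of 7. Their summed intensities on the control and knockout arrays, undetected markers included, were 32264 and 27986 for adipocytes and 5671 and 6844 for endothelium. The sums were 25850 and 32880 for macrophages, 30840 and 33765 for muscle and 30145 and 57561 for sebaceous glands. The undetected markers were Fabp4 and Retn of adipocytes and Kdr of endothelium. The brightest adipocyte markers Cfd and Lpl were at 19974 and 16618 and at 8905 and 8720. Egfl7 and Emcn of endothelium were at 2572 and 3124 and at 952 and 893. Lyz2 and Mrc1 of macrophages were at 14833 and 18923 and at 5109 and 5818. Acta1 and Ckm of muscle were at 22196 and 23631 and at 3329 and 3557, and Elovl4 and Scd1 of sebaceous glands at 9709 and 17837 and at 9736 and 15484.

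**Figure D5:**
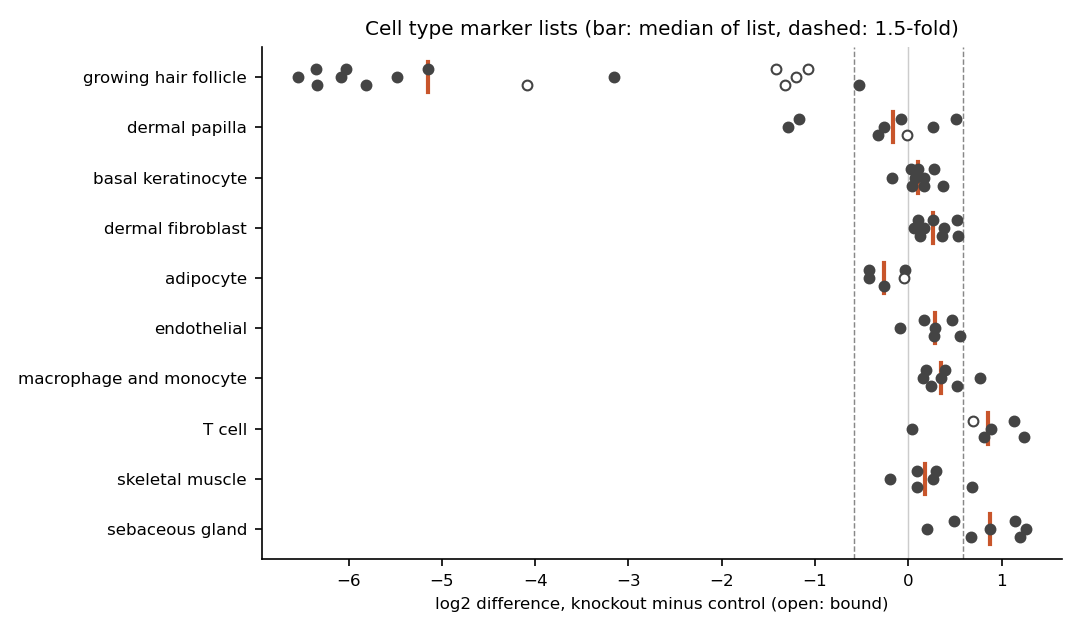
Log2 difference of detected markers in 10 cell type lists, 1 point a gene (open: bound), with orange bars at the list medians and dashed lines at 1.5-fold. The growing hair follicle list, with a median of -5.15, lies far to the left of the others, and the T cell and sebaceous gland lists lie to the right, at 0.85 and 0.88.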

How the data were processed

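Total RNA of wounded skin was labelled with biotin and read on Illumina bead arrays, per the labels' protocols. The submitters' processing notes name GenomeStudio 2011.1. The deposited raw and normalized tables hold linear intensity per probe for 25697 probes. The median raw signal was 180.0 for control and 165.8 for knockout, and both columns of the authors' normalized table have a median of 169.9. The sources used here do not give the normalization method. The deposited detection p-values do not follow the row order of the signals (rank correlation 0.009 and 0.008), so they were used as a set per array: as many of the brightest probes as p-values under 0.01 counted as detected, 12599 and 12168 with ties.

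The authors' normalized intensity was put on a log2 scale without an offset, and each gene was represented by its brightest probe over both arrays. Probes were named through RefSeq (GRCm38.p6), 25376 in all. No test was run, since each group has 1 array, and the groups follow the sample titles. Alternatives were no normalization, median scaling, neqc (limma 3.58.1, offset 16, p-values reassigned by rank), normexp with offset 50, 50 added before log2, other detection floors or none, and the mean of detected probes. The code was tested on simulated data. The FGF genes, the 6 pathway lists and the 10 cell type lists were chosen with earlier results of these data known. All FGF genes were named, of each pathway list those past 1.5-fold and the brightest up to 4, and of each cell type list the 2 brightest. One gene that this rule names is not reported here.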

Additional observations from a re-analysis of the deposited data

How the results depend on the processing

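No paired analysis was possible because each group has 1 array. Over 9 alternatives, 94 of 99 values stayed within 1.5 times of the main count or within 0.58 on the log2 scale, and none past 1.5-fold changed sign. Not all of these values could move, since the other floors tried leave the difference of a gene detected on both arrays unchanged. The number of FGF genes at least 1.5-fold lower was 1 in the authors' values and 3 with neqc. It was 2 each with normexp (offset 50) and without a filter on dim probes, where Fgf5 joined Fgf22. The shares of all genes at least 1.5-fold lower were 2.98%, 5.64%, 3.81% and 1.73% in these settings. In raw signals the number was 1, beside 5.51%. Fgf22 was at least 1.5-fold lower under every setting. At least 2-fold lower were 0 in the authors' values, 1 each in raw signals and with normexp, and 2 with neqc. The shares of all detected genes were 1.38%, 1.93%, 1.77% and 2.35%. With neqc the bounds of Fgf22 and Fgf5 moved from -0.86 to -2.03 and from -0.37 to -1.09. The neqc values also differ in their starting signals, normalization and offset, and the cause was not tested. The median of the feedback and target genes ran from -0.27 in raw signals, where the median of all genes was -0.16, to -0.04 without the filter. In raw signals Fgf1, Fgf7 and Fgfr1 turned slightly negative, at -0.06, -0.12 and -0.09. Signals near background limit the FGF genes, Fgf7 least. The control signal of Fgfr3, 378, was only a little above 2 times the floor (344.4).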
